A study of Mus musculus with 4 samples.

Results

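Mpo-high progenitors without fate regulators were the cells of the mouse fetal liver that carried much myeloperoxidase transcript and little of the transcripts that mark a chosen myeloid fate. A cell was a member when it had at least 10 Mpo UMIs (unique molecular identifiers, each standing for a captured transcript) per 10000 of its UMIs. Irf8 and Ly6c2 each had to stay under 5 and Cebpe under 4 per 10000. The sum of the stem cell genes Hlf, Meis1, Hoxa9, Hoxa7 and Mycn had to stay under 2, and that of the monocyte and macrophage receptors Csf1r, Cx3cr1, Ccr2 and Trem2 under 3. Of the mast cell and basophil proteases Cpa3 and Mcpt8, a cell could hold fewer than 2 UMIs each. The rule took 1648 of 9960 cells. These 15 genes chose the members, so their levels below are a description and were not tested.

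Granulocyte and monocyte progenitors switch on the enzymes of the primary granules early, and myeloperoxidase, neutrophil elastase, proteinase 3 and cathepsin G are their best known products. C/EBP alpha and PU.1 (the products of Cebpa and Spi1) open this program, C/EBP epsilon (Cebpe) carries it on to the later granules of the neutrophil, and IRF8 directs cells to monocytes and dendritic cells. GATA2 is a zinc finger factor of stem and progenitor cells, and the enhancer deleted here is a distal element that drives it in myeloid progenitors.

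The Gata2-77-/- cells came from 2 embryos lacking that enhancer, and the WT cells from 2 wild-type embryos. All embryos were C57Bl/6J at E14.5, and the cells of all 4 libraries had been sorted from fetal liver as lacking lineage markers and Sca-1 and carrying Kit and CD34. Libraries A and B held the Gata2-77-/- cells and libraries F and I the WT cells. The count table covered 3624 genes, and levels are given as CPM, the UMIs of a gene per 1000000 UMIs of these genes, after summing the cells of a library.

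Depth differed by genotype and bears on every limit of the rule. Members had a median of 8868 and 8204 UMIs in Gata2-77-/- libraries A and B, against 14981 and 21044 UMIs in WT libraries F and I. Over all cells the medians were 7492 and 7087 UMIs in A and B, against 12826.5 and 17437.5 UMIs in F and I. Members contributed 2495643 and 4261218 UMIs in A and B, and 7173121 and 7568234 in F and I. Xist, which coats an inactive X, had no UMI in members of A and F and stood at 373 and 427 CPM in B and I, so each genotype had a library of either kind. Cell barcodes were not analysed here, so cells shared between libraries were not counted.

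The share of cells that were members did not separate the genotypes. Members were 291 of 2235 cells (13.02%) in library A and 515 of 2745 (18.8%) in B, against 477 of 3042 (15.7%) in F and 365 of 1938 (18.8%) in I. The means were 15.9% ± 4.06 in Gata2-77-/- and 17.3% ± 2.23 in WT libraries (SD, n = 2 each). The difference of -1.37 percentage points was smaller than the spread between libraries (exact two-sided permutation of 4 libraries, p = 0.667, where 2 against 2 cannot go below 0.333). It was 0.60 points with the Mpo limit at 8, 1.504 points without library A and 0.21 points without library I.

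The similar shares came from unlike pools of Mpo-carrying cells. Cells with at least 10 Mpo UMIs per 10000 made up 26.9% and 35.4% of libraries A and B, against 52.3% and 50.7% of F and I. Of these cells 48.4% and 53.0% were members in A and B, against 30.0% and 37.1% in F and I. The Cebpe limit removed 4.16% and 2.57% of the Mpo-carrying cells in A and B, against 40.7% and 34.3% in F and I. The Irf8 limit removed 24.8% and 22.8% in A and B, against 10.3% and 6.51% in F and I. The limit on the monocyte and macrophage receptors removed 21.8% and 20.2% in A and B, against 3.96% and 5.19% in F and I. In Gata2-77-/- libraries the rule thus set aside mostly Irf8 and receptor carrying cells, and in WT libraries mostly Cebpe and Ly6c2 carrying cells. The Cpa3 and Mcpt8 limit counts UMIs and not a share of them, so it is stricter in deeper cells. It removed 2.66% and 2.67% in A and B, against 8.68% and 12.9% in F and I.

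**Figure D1:**
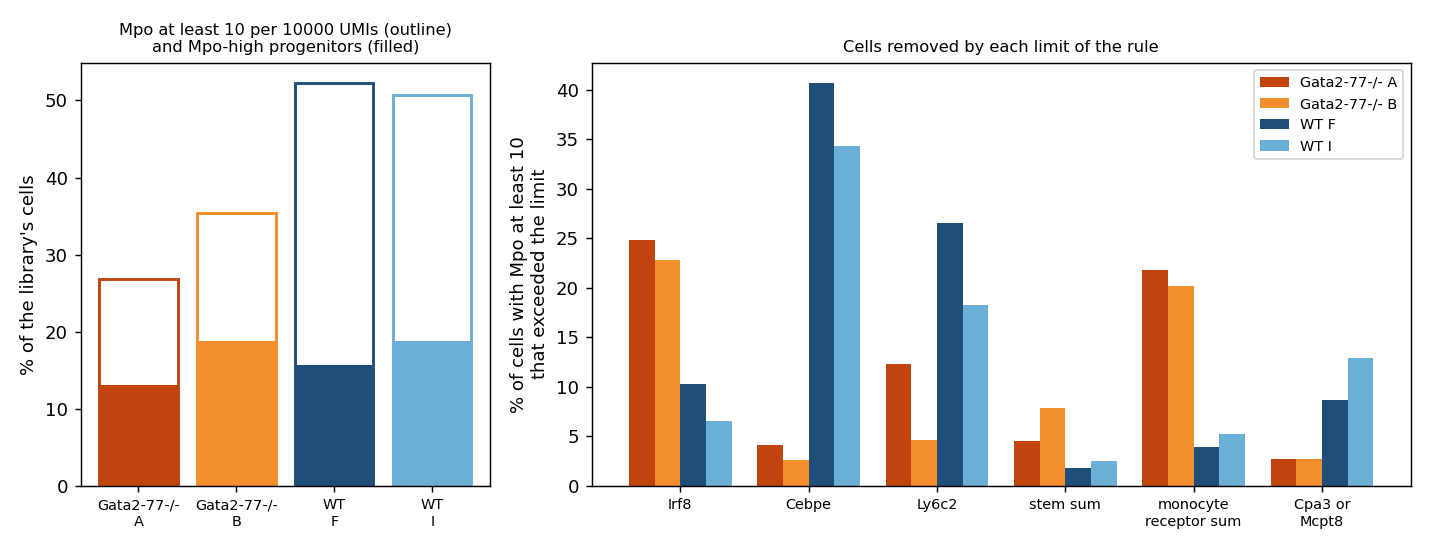
Left, the percentage of each library's cells with Mpo of at least 10 per 10000 UMIs (outline) and of Mpo-high progenitors (filled). Right, the percentage of the Mpo-carrying cells of each library that exceeded each limit of the rule. Cebpe exceeded its limit in 4.16% and 2.57% of Mpo-carrying cells in Gata2-77-/- libraries and in 40.7% and 34.3% in WT libraries.

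The members carried both genes that were given as markers. Mpo stood at 1636.5 and 1708 CPM in members of A and B and at 1949 and 2051.5 CPM in members of F and I, against 630 and 732 CPM in all other cells of A and B and 1415 and 1403 CPM in those of F and I. Mpo is a gene of the rule. Cebpa, which the rule did not use, stood at 40.1 and 58.0 CPM in members of A and B and at 64.1 and 51.4 CPM in F and I. In the other cells it stood at 33.2 and 33.5 CPM in A and B and at 36.1 and 36.2 CPM in F and I. All 4 libraries thus had more Cebpa in members, by 1.502-fold on average. Kit and Cd34, the genes of the sort, were both detected, with Cd34 at 256 and 296 CPM in members of A and B and 194 and 220.1 CPM in F and I.

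The name "without fate regulators" did not hold as an absence. Irf8 stood at 196 and 188 CPM in members of A and B and at 127 and 155 CPM in F and I, and 26.5% and 28.5% of members in A and B, against 45.5% and 28.2% in F and I, had no Irf8 UMI. Cebpe stood at 50.5 and 44.4 CPM in members of A and B, against 129 and 98.7 CPM in F and I. No Cebpe UMI was seen in 75.3% and 77.9% of members in A and B, against 36.3% and 36.7% in F and I. Members of Gata2-77-/- libraries had more Cebpe than the other cells of those libraries (21.5 and 19.8 CPM), whereas members of WT libraries had less than theirs (233 and 186 CPM). Members are therefore called Mpo-high progenitors here, and the remaining Cebpe is given beside the results that move with it.

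Cells near the Mpo limit were common. Just inside it, from 10 to 12 per 10000, lay 201 Gata2-77-/- and 144 WT members, with medians of 11.005 and 11.035. Just outside, from 8 to 10, lay 248 Gata2-77-/- and 149 WT cells that met every other limit, with medians of 9.06 and 8.94. When every cell was thinned at random to 4346 UMIs before the rule was applied, it kept 63.5% and 64.4% of the members of A and B that were deep enough, and 53.2% and 53.8% of those of F and I. Membership thus turned on sampling for many cells.

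Beyond Mpo, the genes highest in members over the other cells included Ms4a3, Ctsg and genes of protein folding and export. No test was made, since the rule decides which cells are compared. Summed over 19 primary granule genes, Mpo among them, members had 16012 and 14234 CPM in A and B. The other cells there had 9229 and 8758 CPM. In F and I members had 22482 and 18875 CPM, against 19068 and 15892 CPM in the other cells. Over 9 later neutrophil genes members had 642 and 166 CPM in A and B, against 298 and 192 CPM in the others. In F and I members had less, at 2068 and 2293 CPM against 6885 and 3449 CPM. Of genes with at least 50 CPM in members of every library, Ms4a3, a membrane protein of granulocyte and monocyte progenitors, had the highest average ratio to the other cells, 1.88-fold. It stood at 541 and 426 CPM in members of A and B and 763 and 603 CPM in F and I, against 159 and 139 CPM in the other cells of A and B and 687 and 552 CPM in those of F and I. The ratio was large in both Gata2-77-/- libraries and small in both WT libraries, where many other cells also carried the gene. Ctsg (cathepsin G) behaved in the same way, at 1745 and 1491 CPM in members of A and B and 2857 and 2170.1 CPM in F and I, against 749.9 and 666 CPM in other cells of A and B and 2051 and 1707 CPM in those of F and I.

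Of the 15 highest genes, Fkbp11, Hspa5, Calr, Ero1l, Rpn1 and Sdf2l1 encode proteins of the endoplasmic reticulum. Hspa5 (the chaperone BiP) stood at 409.5 and 439 CPM in members of A and B and 395 and 602 CPM in F and I, against 203 and 237 CPM in other cells of A and B and 276 and 368 CPM in those of F and I. Calr (calreticulin, a chaperone of glycoproteins such as myeloperoxidase) was 1.62-fold and Sdf2l1 1.49-fold above the other cells. Summed over 15 measured genes of endoplasmic reticulum folding and secretion, members had 7328 and 7385 CPM in A and B and 7579.5 and 8753 CPM in F and I. The other cells had 5292 and 5402 CPM in A and B and 6124 and 6840 CPM in F and I, so the sum was higher in members of all 4 libraries. Others of the 15 were Ap3s1 (a subunit of the AP-3 sorting adaptor), the myeloid receptor gene Clec5a, Idh1, Tfec, Atp8b4 and Anxa3, between 1.49-fold and 1.62-fold above the other cells.

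Lowest in members, among genes with at least 50 CPM in the other cells, were the globins. Hbb-bs (beta globin) stood at 2.80 and 12.9 CPM in members of A and B and 28.4 and 37.9 CPM in F and I, against 228 and 212 CPM in other cells of A and B and 1336 and 2382.5 CPM in those of F and I. Ctla2a was 3.66-fold, Cd24a (a glycoprotein of early blood cells) 2.34-fold, Ifitm1 2.14-fold, Lsp1 2.07-fold and Bcl11a, a transcription factor of lymphoid and stem cells, 1.89-fold higher in the other cells. Markers of monocytes and dendritic cells were not scarce. The 21 measured genes, some of them in the rule, summed to 1147 and 1084 CPM in members of A and B. In F and I they summed to 1082 and 1087 CPM. The other cells had 1474 and 1320 CPM in A and B and 1248 and 1114 CPM in F and I. Markers of the erythroid, eosinophil and mast cell lineages were present at low levels. The 18 measured erythroid genes summed to 135 and 163 CPM in members of A and B and 182 and 191 CPM in F and I, and the eosinophil granule genes Prg2 and Prg3 to 0 and 0.939 CPM in A and B and 27.0 and 5.15 CPM in F and I. Cpa3, which the rule limits, stood at 0 and 0.235 CPM in members of A and B and 5.44 and 4.76 CPM in F and I.

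**Figure D2:**
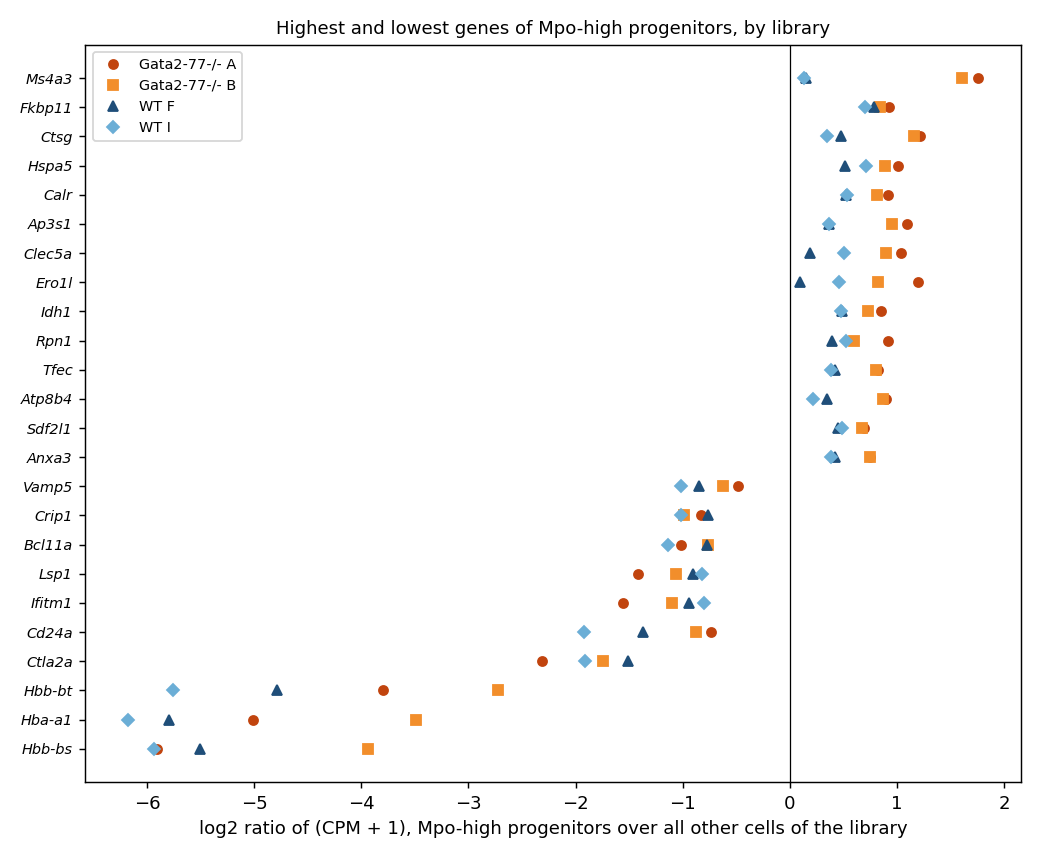
Log2 ratio of (CPM + 1) in Mpo-high progenitors over all other cells of the same library, with 1 point per library, for genes among the 15 highest and 10 lowest. Ms4a3 and Ctsg had larger ratios in both Gata2-77-/- libraries than in both WT libraries, and the globins lay farthest below 0.

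The promoters of primary granule genes are shown because Mpo is a gene of the rule and Elane, Prtn3 and Ctsg are followed through the comparisons. Each run holds 250 bases before and 50 after the annotated start, from RefSeq on GRCm38.p6, 5′ to 3′ on the gene's strand. Capitals mark GAGGAA, the core letters of a PU.1 type site, on either strand. The windows lie at chr11:87793534-87793833 (+) for Mpo, chr10:79886062-79886361 (+) for Elane, chr10:79879417-79879716 (+) for Prtn3 and chr14:56102525-56102824 (-) for Ctsg.
Mpo: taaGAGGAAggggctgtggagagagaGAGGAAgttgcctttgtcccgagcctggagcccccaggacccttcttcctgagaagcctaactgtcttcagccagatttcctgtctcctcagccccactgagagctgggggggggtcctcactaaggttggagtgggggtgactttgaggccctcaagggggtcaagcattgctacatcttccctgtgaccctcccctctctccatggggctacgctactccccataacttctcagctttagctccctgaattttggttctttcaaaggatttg
Elane: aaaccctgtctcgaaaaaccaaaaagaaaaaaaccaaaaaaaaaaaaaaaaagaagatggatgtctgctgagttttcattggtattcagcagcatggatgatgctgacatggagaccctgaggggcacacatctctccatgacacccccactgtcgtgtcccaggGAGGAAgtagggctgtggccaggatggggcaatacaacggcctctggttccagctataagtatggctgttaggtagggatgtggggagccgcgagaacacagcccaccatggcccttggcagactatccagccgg
Prtn3: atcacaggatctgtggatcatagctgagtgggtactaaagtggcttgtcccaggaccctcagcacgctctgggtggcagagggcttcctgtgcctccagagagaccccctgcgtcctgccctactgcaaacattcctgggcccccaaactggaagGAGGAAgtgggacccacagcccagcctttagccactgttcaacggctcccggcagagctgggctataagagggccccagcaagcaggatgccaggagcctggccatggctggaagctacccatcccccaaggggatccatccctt
Ctsg: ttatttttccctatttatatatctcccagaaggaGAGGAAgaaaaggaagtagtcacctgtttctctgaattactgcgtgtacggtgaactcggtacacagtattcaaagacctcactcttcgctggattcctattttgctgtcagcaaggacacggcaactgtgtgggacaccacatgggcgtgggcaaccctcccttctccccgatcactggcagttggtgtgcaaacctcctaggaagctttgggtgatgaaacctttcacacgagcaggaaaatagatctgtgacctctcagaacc

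These letters occurred 2 times in the Mpo window and 1 time each in those of Elane, Prtn3 and Ctsg, and also in that of Ms4a3, so 5 of 5 windows held them. In all 32851 RefSeq promoter windows of the same length, 28.3% did. In Elane the match began 85 bases before the start and in Prtn3, its neighbour on chromosome 10, 95 bases before it. The matches of Mpo began 247 and 224 bases before the start and that of Ctsg 216 bases before it. That of Ms4a3 began 35 bases after the start. The letters GATAA of a GATA type site, found in 25.4% of all windows, occurred in 0 of the 5. Of 6 motifs searched on both strands, TTGCNNAA (10.8% of all windows) and TTNCNNAA (40.7%), both of C/EBP type and overlapping, occurred in 1 of the 5, the window of Ms4a3. AACGG (17.4%) occurred in 2, those of Elane and Prtn3, and AACNGTT (4.45%) in 0, both of Myb type. The matches describe letters and not binding.

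Within the members, cells with more Mpo also had more of the other granule transcripts. Most members had 10 to 20 Mpo UMIs per 10000, namely 81.1% and 73.4% in A and B, against 59.5% and 66.3% in F and I. Another 17.9% and 26.0% in A and B, against 36.7% and 27.7% in F and I, had 20 to 40, and 3 cells each in A and B, against 18 and 22 in F and I, had more. Elane (neutrophil elastase) stood at 1000.0 and 766 CPM in the lower range in A and B and at 1953 and 1512 CPM in F and I. In the higher range it stood at 2111 and 1094 CPM in A and B and at 4499.5 and 2647.5 CPM in F and I. All 4 libraries had more Elane in the higher range, and both WT libraries stood above both Gata2-77-/- libraries in either range.

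Of 18 genes of the primary granule and neutrophil progenitor list, Mpo left out, 16 were higher in the 20 to 40 range in all 4 libraries, against 13.5% of the 3438 genes with at least 20 CPM. Their median difference was 0.44 on the log2 scale, and -0.01 over all those genes. Fcnb (ficolin B, a lectin of myeloid cells) had the largest average log2 difference (1.40) among genes higher in all 4 libraries, with 11.2 and 1.87 CPM in the lower range in A and B and 26.6 and 19.2 CPM in F and I, and 30.8 and 4.88 CPM in the higher range in A and B and 80.2 and 61.1 CPM in F and I. Among the other such genes were BC100530 (1.18), Pglyrp1 (1.09), a peptidoglycan binding protein of granules, Alas1 (1.05), the first enzyme of heme synthesis, and Slpi (1.04), a protease inhibitor. S100a8 was higher in 3 libraries and lower in B, with 188 and 127 CPM in the lower range in A and B and 569 and 626 CPM in F and I, and 1436 and 103 CPM in the higher range in A and B and 1875 and 2313 CPM in F and I. Of 15 endoplasmic reticulum genes, 11 were higher in all 4 libraries. Cebpe, a gene of the rule, moved in the same direction, with 40.9 and 36.1 CPM in the lower range in A and B and 91.6 and 80.4 CPM in F and I, and 92.4 and 71.2 CPM in the higher range in A and B and 183 and 121 CPM in F and I.

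Other transcripts were lower where Mpo was higher. Of 6 interferon response genes 5 were lower in all 4 libraries, and of 11 stem and multipotent genes 6 were, against 15% of all genes. Ifitm1 had 222 and 235 CPM in the lower range in A and B and 258 and 153 CPM in F and I, and 90.04 and 151 CPM in the higher range in A and B and 90.6 and 113 CPM in F and I. Cd27, a receptor that marks multipotent cells, Notch1, the receptor that starts T cell fate, and Satb1, a chromatin organiser, were lower by average log2 differences of -0.88, -0.92 and -0.75. Cebpa did not follow Mpo. It had 39.96 and 53.8 CPM in the lower range in A and B and 68.1 and 48.5 CPM in F and I, and 42.6 and 71.2 CPM in the higher range in A and B and 57.3 and 55.7 CPM in F and I. Spi1 stood between 353 and 419 CPM in all 8 of these sets of cells.

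**Figure D3:**
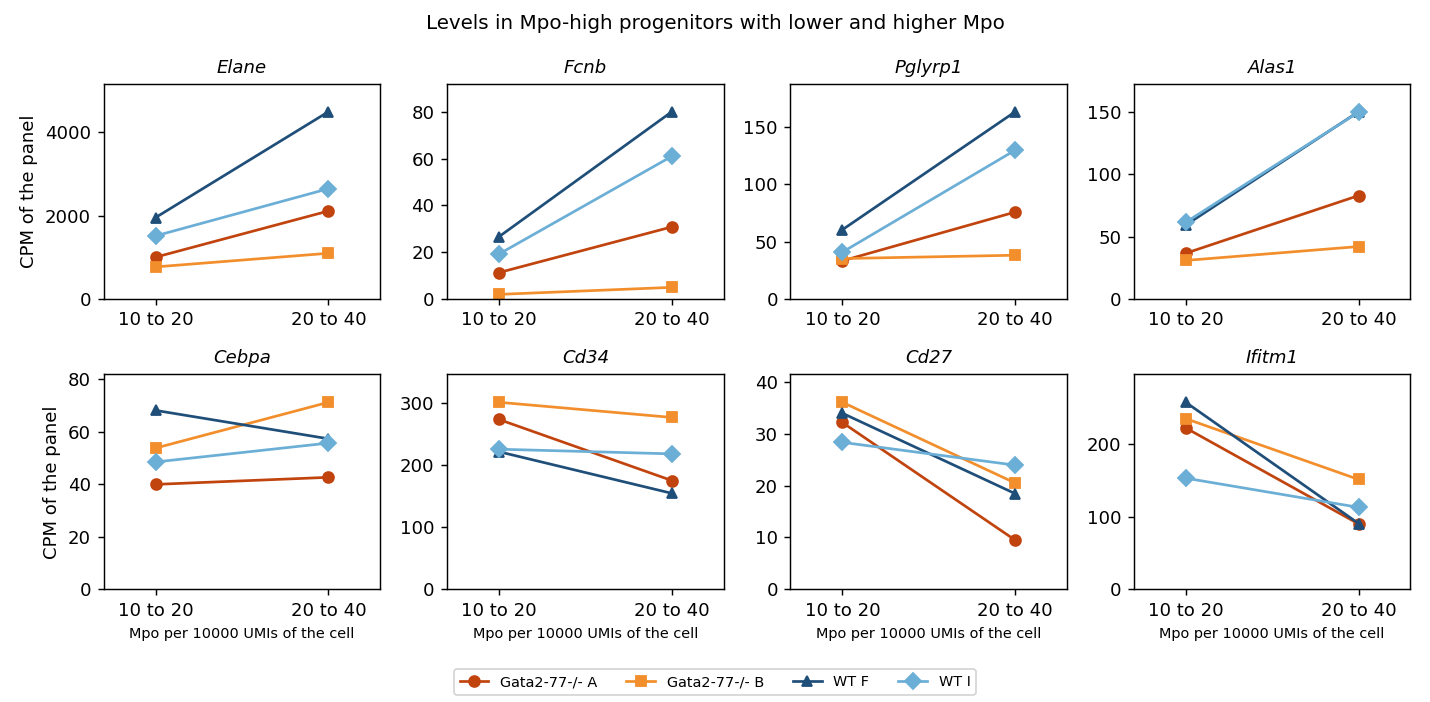
Level in CPM of 8 genes in Mpo-high progenitors with 10 to 20 and with 20 to 40 Mpo UMIs per 10000, with 1 line per library. Elane, Fcnb, Pglyrp1 and Alas1 were higher in the higher range in all 4 libraries, Cd34, Cd27 and Ifitm1 were lower, and Cebpa moved in either direction.

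Genotype was then compared within the members, on UMIs summed per library. Gata2 (ENSMUSG00000015053.14, chromosome 6 from 88193891 to 88207032 on the + strand in mm10) had 3.21 and 5.398 CPM in members of A and B, against 14.499 and 10.8 CPM in F and I. Both Gata2-77-/- libraries lay below both WT libraries, by a log2 fold change of -1.55 (SE 0.39, edgeR adjusted p = 0.247 over all genes, and 0.0443 to 0.649 over 16 alternatives). With every cell thinned to 4346 UMIs, 2.40% and 2.36% of members in A and B, against 5.83% and 6.45% in F and I, had a Gata2 UMI. Without thinning the shares were 2.75% and 4.08% in A and B, against 13.2% and 17.0% in F and I. Cebpe-high cells were taken as a background for free RNA, which was not checked. Of 37 and 39 such thinned cells in A and B, 2.70% and 0% had a Gata2 UMI. In F and I the shares were 2.72% and 2.62%. The background in A and B rests on 1 and 0 cells with a UMI. It therefore cannot tell whether Gata2-77-/- members held Gata2 beyond free RNA.

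No gene passed the genotype test in the members under the quasi-likelihood fit of edgeR. Of 3564 genes tested, 0 (0.0%) had an adjusted p under 0.05, and the lowest adjusted p was 0.0579, for Gm5483. At an unadjusted p under 0.05 there were 349 genes (9.79%), with 120 (3.37%) higher and 229 (6.43%) lower in Gata2-77-/-. The DESeq2 Wald test called 47 genes (1.32%), 7 (0.196%) higher and 40 (1.12%) lower. Members chosen on thinned cells gave 96 of 3530 (2.72%), 14 (0.397%) higher and 82 (2.32%) lower with edgeR. Leaving out library A gave 26 calls, without B 13, without F 2 and without I 15. On counts simulated at this size, with the same spread for every gene (coefficient of variation 0.098), edgeR found 70% of the 1.5-fold differences and 100% of the 2-fold ones. The real genes were not held to the same spread, and Gm5483 did not pass at a log2 fold change of -5.05. These percentages are therefore not the power of the test on the real counts. Levels below are given for what they are, with edgeR adjusted p-values over all genes.

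Most primary granule transcripts had lower values in Gata2-77-/- members, although none passed the edgeR test on all members. Of 19 measured genes of the list, 18 were tested, since Mpo belongs to the rule. Of these, 12 had an unadjusted p under 0.05, all lower (6.43% of all genes), and 14 had both Gata2-77-/- libraries below both WT libraries (13.4% of all genes). Their median log2 fold change was -0.60, and that of all genes 0.00. The DESeq2 test called 6 of them, all lower (1.12% of all genes). Elane had 1209.7 and 843 CPM in A and B, against 2999.5 and 1982 CPM in F and I (log2 fold change -1.33, SE 0.26, edgeR adjusted p = 0.144). Both Gata2-77-/- libraries stood well below both WT libraries, and WT library F stood above WT library I.

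Hp (haptoglobin) had 161 and 127 CPM in A and B, against 251 and 295 CPM in F and I (-0.97, SE 0.15, edgeR adjusted p = 0.0801). Fcgr3, an Fc receptor of myeloid cells, had 131 and 123 CPM in A and B, against 235 and 191 CPM in F and I (edgeR adjusted p = 0.124). Srgn (serglycin, the proteoglycan that packs granule proteases) had 736 and 608 CPM in A and B, against 1329 and 1012 CPM in F and I (edgeR adjusted p = 0.163). Ctsg was at -0.69 and Ms4a3 at -0.55 on the log2 scale, with the values given above. The proteases did not all differ alike: Prtn3 (proteinase 3), the most abundant of them, had 4338 and 4141 CPM in A and B, against 5240.0 and 4771 CPM in F and I (-0.29, SE 0.15, edgeR adjusted p = 0.648). Lyz2 (lysozyme) overlapped between the genotypes, with 447 and 341 CPM in A and B, against 451 and 425 CPM in F and I.

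Transcripts of later neutrophil stages had fold changes farther below 0. Of 9 measured genes 7 passed the filter on low counts, and 6 of these had an unadjusted p under 0.05, all lower (6.43% of all genes), with a median log2 fold change of -2.81 over the 7. S100a9 (a calprotectin subunit, chromosome 3 from 90692632 to 90695721) had 95.8 and 25.8 CPM in A and B, against 504 and 549.5 CPM in F and I (-3.22, SE 0.50, edgeR adjusted p = 0.0801). Its partner S100a8 had 443 and 120.4 CPM in A and B, against 1156 and 1282 CPM in F and I. Camp (an antimicrobial peptide of secondary granules) had 4.01 CPM in A and no UMI in B, against 30.8 and 67.7 CPM in F and I. Gm5483 had 4.81 and 0.235 CPM in A and B, against 57.9 and 67.8 CPM in F and I. Library A was above library B for each of these 4 genes, so the Gata2-77-/- libraries differed among themselves as well.

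The remaining Cebpe moved with these genes. Cebpe was lower in both Gata2-77-/- libraries, as given above, and it was part of the rule. Members with no Cebpe UMI were therefore looked at separately, a choice made after these values had been seen. They numbered 219 and 401 in A and B, against 173 and 134 in F and I, and having no UMI is a stricter limit in the deeper WT cells. Among them edgeR called 0 genes, and 158 of 3536 (4.47%) had an unadjusted p under 0.05. The median of the 18 primary granule genes was then -0.02 on the log2 scale, with 9 of 18 below 0. Prtn3 had 3914 and 3863 CPM in A and B, against 4009 and 3927 CPM in F and I, and Elane 682 and 558 CPM in A and B, against 1098 and 538 CPM in F and I. Ms4a3 was on the other side, with 323 and 282 CPM in A and B, against 233 and 181 CPM in F and I (log2 fold change 0.52), and so was Pglyrp1 (0.61). Later neutrophil genes still had lower values on average, with a median of -1.63 over 6 genes, though S100a9 overlapped, with 22.7 and 2.83 CPM in A and B, against 55.6 and 11.8 CPM in F and I. With all upper limits of the rule halved instead, the median of the 18 primary granule genes was -0.38, with 16 of 18 below 0. Cebpe then stood at 29.7 and 27.2 CPM in A and B, against 66.9 and 58.4 CPM in F and I. In members with Mpo of 10 to 20 per 10000 that median was -0.42, also with 16 of 18 below 0. In members chosen on thinned cells, edgeR called 12 of 18 primary granule genes and 6 of 6 later neutrophil genes at an adjusted p under 0.05, all lower (2.32% of all genes). Elane then had an edgeR adjusted p of 0.00255 and Hp of 0.00104. The medians were -0.97 and -4.62, with Cebpe at 24.9 and 28.2 CPM in A and B, against 90.1 and 75.6 CPM in F and I. That Cebpe was counted on the same thinned UMIs to which the rule was applied. Of the cells chosen after thinning, 174 of 250 and 313 of 424 in A and B were also members on all their UMIs. In F and I these were 247 of 429 and 196 of 341. The part of the remaining cells in these calls was not tested.

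**Figure D4:**
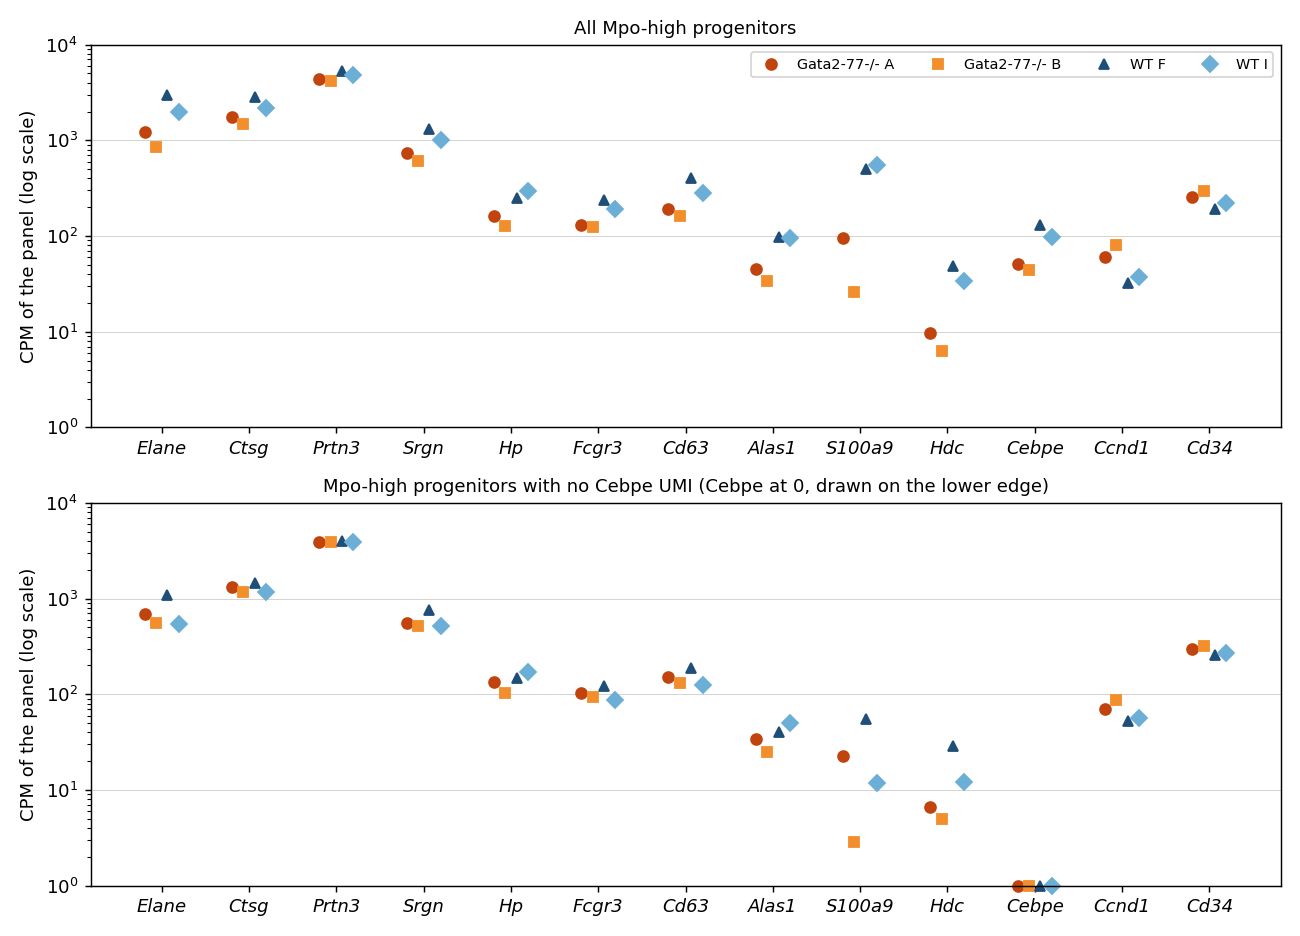
Level in CPM on a log axis of 13 genes in each library, above for all Mpo-high progenitors and below for those with no Cebpe UMI. In the upper panel the Gata2-77-/- libraries lie below the WT libraries for Elane, Ctsg, Prtn3, Srgn, Hp, Fcgr3, Cd63, Alas1, S100a9, Hdc and Cebpe and above them for Ccnd1 and Cd34. In the lower panel they overlap for Elane, Ctsg, Srgn, Fcgr3, Cd63 and S100a9.

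The regulators of the program did not all behave alike. Cebpe, a gene of the rule, was lower in both Gata2-77-/- libraries, as given above. Cebpa overlapped between the genotypes (-0.27, SE 0.19), as did Spi1, with 382 and 413 CPM in A and B, against 391 and 403 CPM in F and I (-0.05, SE 0.08). Gfi1, a repressor needed for neutrophils, had 14.8 and 7.74 CPM in A and B, against 18.8 and 12.8 CPM in F and I. With cells thinned before the rule, 3.60% and 3.30% of members in A and B had a Gfi1 UMI. In F and I the shares were 10.0% and 6.74%. Myb, a factor of immature blood cells, was lower in both Gata2-77-/- libraries, with 116 and 97.6 CPM in A and B, against 165 and 138 CPM in F and I (-0.57, SE 0.15, edgeR adjusted p = 0.262). Of 11 genes tested in this list 1 was higher and 2 were lower at an unadjusted p under 0.05 (3.37% and 6.43% of all genes), and none passed edgeR or DESeq2.

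Alas1 and Hdc had both Gata2-77-/- libraries below both WT libraries among all members and among those with no Cebpe UMI. Alas1 had 45.7 and 33.8 CPM in A and B, against 98.6 and 95.7 CPM in F and I (-1.37, SE 0.16, edgeR adjusted p = 0.0801, DESeq2 adjusted p = 2.50e-07), and in members with no Cebpe UMI 33.8 and 25.1 CPM in A and B, against 40.2 and 49.8 CPM in F and I (-0.68, SE 0.21, edgeR adjusted p = 0.993). The other 10 heme and iron genes tested gave 1 higher and 0 lower at an unadjusted p under 0.05 (3.37% and 6.43% of all genes). Hdc, the histamine making enzyme of basophils and mast cells, had 9.62 and 6.34 CPM in A and B, against 48.5 and 33.6 CPM in F and I (-2.48, SE 0.33, edgeR adjusted p = 0.0801, DESeq2 adjusted p = 3.27e-09). In members with no Cebpe UMI it had 6.65 and 5.03 CPM in A and B, against 28.8 and 12.2 CPM in F and I (-1.87, SE 0.51, edgeR adjusted p = 0.896). Of the other basophil and mast cell genes, Cpa3 and Mcpt8 are genes of the rule. Their limit counts UMIs and is stricter in the deeper WT cells, so their levels do not compare the genotypes. Cpa3 stood lower in A and B, as given above. Mcpt8 stood at 14.02 and 13.6 CPM in A and B, against 8.09 and 7.93 CPM in F and I. The 5 measured genes of that list, Hdc, Cpa3 and Mcpt8 among them, summed to 77.7 and 68.8 CPM in A and B, against 134 and 104 CPM in F and I. The part of such RNA in the result was not tested.

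Of the 8 cytokine receptor and signalling genes tested, 5 had a fold change below 0 and 3 above. Ifngr1, a chain of the interferon gamma receptor, had 78.1 and 73.9 CPM in A and B, against 113 and 104 CPM in F and I (-0.57, SE 0.11, edgeR adjusted p = 0.143), and Csf2ra, of the GM-CSF receptor, had 24.8 and 23.9 CPM in A and B, against 30.7 and 35.7 CPM in F and I. Socs2, which dampens cytokine signalling, had 4.01 and 4.69 CPM in A and B, against 0.836 and 0.132 CPM in F and I (3.09, SE 0.78, edgeR adjusted p = 0.247). Its level in F and I rests on few UMIs. At an unadjusted p under 0.05, 1 of the 8 genes was higher, namely Socs2, which is not a receptor, and 3 were lower (3.37% and 6.43% of all genes).

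The cyclin genes Ccnd1 and Ccnd2 had higher values in both Gata2-77-/- libraries than in both WT libraries. Ccnd1 (cyclin D1, chromosome 7 from 144929931 to 144939925) had 60.1 and 80.7 CPM in A and B, against 32.2 and 37.7 CPM in F and I (0.97, SE 0.15, edgeR adjusted p = 0.0801, DESeq2 adjusted p = 0.00130). Ccnd2 (cyclin D2) had 146 and 194 CPM in A and B, against 99.8 and 105 CPM in F and I (0.69, SE 0.12, edgeR adjusted p = 0.0911). Cd24a had 72.5 and 82.6 CPM in A and B, against 42.8 and 25.1 CPM in F and I. These 3 genes, and Apoe, Cd63, Ltb4r1 and B4galt6 below, were picked after their values had been seen. Of 14 stem and multipotent genes tested, 4 were higher and 1 lower at an unadjusted p under 0.05 (3.37% and 6.43% of all genes), and the median log2 fold change was 0.23. Cd34 was 0.37 and Hmga2, a chromatin protein of fetal stem cells, 0.35 higher on the log2 scale. In members with no Cebpe UMI the median was -0.09, Hmga2 stood at -0.01 and Ccnd1 at 0.53, with 69.8 and 87.0 CPM in A and B, against 51.95 and 55.9 CPM in F and I.

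Among the 22 S phase genes tested 2 were higher and 0 lower at an unadjusted p under 0.05 (3.37% and 6.43% of all genes), with a median of 0.02. Among 21 G2/M genes 1 was higher and 1 lower, with a median of -0.14 and 17 below 0. Of 15 endoplasmic reticulum genes, all 15 had a fold change below 0, as had 50.8% of all genes. The median was -0.15, and 4 were lower at an unadjusted p under 0.05 (6.43% of all genes). Xbp1, the factor of the unfolded protein response, had 82.5 and 85.9 CPM in A and B, against 94.8 and 106 CPM in F and I (-0.31, SE 0.09, edgeR adjusted p = 0.293). Glycolysis genes gave 2 lower of 12 (6.43% of all genes), of which Gpi1 had 277 and 288 CPM in A and B, against 376 and 385 CPM in F and I (-0.48, SE 0.09, edgeR adjusted p = 0.113). Ifi203, an interferon induced gene, had 31.3 and 46.9 CPM in A and B, against 19.7 and 23.8 CPM in F and I, and 2 of 7 interferon response genes were higher and 0 lower (3.37% and 6.43% of all genes).

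The genotype effect in Mpo-high progenitors was then set against that in stem-marker cells of the same libraries, which carried the stem sum at or above its limit and Mpo below 10. They numbered 395 and 493 in A and B, against 325 and 255 in F and I. The interaction test of edgeR called 75 of 3580 genes (2.09%), of which 30 (0.838%) had a higher and 45 (1.26%) a lower genotype effect in Mpo-high progenitors. Without library A the count was 37, without B 21, without F 272 and without I 142. Among the 5 largest differences in each direction, the 5 lower ones were Pglyrp1, Hp, Cd63, Rgcc and B4galt6. All 5 had log2 fold changes below 0 in Mpo-high progenitors and above 0 in stem-marker cells. In stem-marker cells, however, the genotypes overlapped for Hp and B4galt6. Hp had 8.35 and 9.07 CPM there in A and B, against 8.66 and 3.81 CPM in F and I. B4galt6 had 7.62 and 9.37 CPM there in A and B, against 7.82 and 7.04 CPM in F and I. For Pglyrp1, Cd63 and Rgcc, libraries A and B both stood above F and I in stem-marker cells. Cd63, a protein of granule and lysosome membranes, had 189.5 and 162 CPM in Mpo-high progenitors of A and B, against 406 and 284 CPM in F and I. In stem-marker cells it had 154 and 153 CPM in A and B, against 134 and 100.04 CPM in F and I, so the genotypes were ordered the other way. The difference of log2 fold changes was -1.38 (SE 0.11, edgeR adjusted p = 6.58e-09), and it passed under 7 of 7 alternatives, as did those of Pglyrp1 (-1.90) and Rgcc (-1.36). These alternatives did not include members with no Cebpe UMI. In those members Cd63 had 152 and 129.8 CPM in A and B, against 189.5 and 126 CPM in F and I, and its genotype effect was -0.20 on the log2 scale, while that of Pglyrp1 was 0.61, as given above.

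Apoe, the lipid carrier apolipoprotein E, was lower in Gata2-77-/- in both sets and less so in Mpo-high progenitors. It had 134 and 98.1 CPM in Mpo-high progenitors of A and B, against 298 and 222 CPM in F and I, and 62.4 and 39.9 CPM in stem-marker cells of A and B, against 445 and 280.2 CPM in F and I. The difference of log2 fold changes was 1.66 (SE 0.12, edgeR adjusted p = 1.68e-09) and passed under 7 of 7 alternatives. The platelet gene Pf4 differed in the same direction, by 3.87. It was scarce in Mpo-high progenitors, at 1.202 and 2.11 CPM in A and B, against 4.88 and 0.529 CPM in F and I.

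Against Irf8-high cells, which carried Irf8 at or above 5 per 10000, 368 of 3549 genes (10.4%) differed in genotype effect by edgeR, 140 (3.94%) higher and 228 (6.42%) lower in Mpo-high progenitors. Without library A the count was 125, without B 86, without F 188 and without I 393, and with cells thinned before the rule it was 136. Ccnd1 separated the sets. In Mpo-high progenitors it was above WT in both Gata2-77-/- libraries, as given above, and in Irf8-high cells it had 74.2 and 94.8 CPM in A and B, against 92.2 and 96.7 CPM in F and I (difference 1.10, SE 0.16, edgeR adjusted p = 1.06e-09, past the threshold under 7 of 7 alternatives). Nkg7, a granule protein of cytotoxic cells also found in neutrophil progenitors, had 109 and 98.1 CPM in Mpo-high progenitors of A and B, against 238 and 117 CPM in F and I. In Irf8-high cells it had 37.1 and 37.1 CPM in A and B, against 26.2 and 12.7 CPM in F and I (difference -1.82, SE 0.22, edgeR adjusted p = 4.24e-14). Ltb4r1, the leukotriene B4 receptor of neutrophils, had 12.02 and 8.92 CPM in Mpo-high progenitors of A and B, against 36.2 and 31.7 CPM in F and I, and 10.4 and 11.8 CPM in Irf8-high cells of A and B, against 14.7 and 7.93 CPM in F and I.

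Against Cebpe-high cells, which carried Cebpe at or above 4 per 10000, 74 of 3569 genes (2.07%) differed, 43 (1.2%) higher and 31 (0.869%) lower in Mpo-high progenitors. There were only 27 and 32 such cells in A and B, against 663 and 307 in F and I, and without library B the count was 0 (302 genes at an unadjusted p under 0.05), without A 3, without F 58 and without I 37. S100a8 had 443 and 120.4 CPM in Mpo-high progenitors of A and B, against 1156 and 1282 CPM in F and I, and in Cebpe-high cells 5682 and 4949 CPM in A and B, against 9845 and 7288 CPM in F and I. The difference was -1.59 (SE 0.22, edgeR adjusted p = 2.85e-05), which passed under 6 of 7 alternatives. These alternatives did not include members with no Cebpe UMI. In those members S100a8 overlapped between the genotypes, with 90.8 and 26.4 CPM in A and B, against 144.9 and 56.9 CPM in F and I. Its genotype effect there was -0.91 (SE 0.57) on the log2 scale, and in Cebpe-high cells it was -0.83. Ifitm3, an interferon induced membrane protein, had 303 and 340.3 CPM in Mpo-high progenitors of A and B, against 248 and 260 CPM in F and I, and 101 and 121 CPM in Cebpe-high cells of A and B, against 28.1 and 19.99 CPM in F and I (difference -1.74, SE 0.29, edgeR adjusted p = 0.000386).

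**Figure D5:**
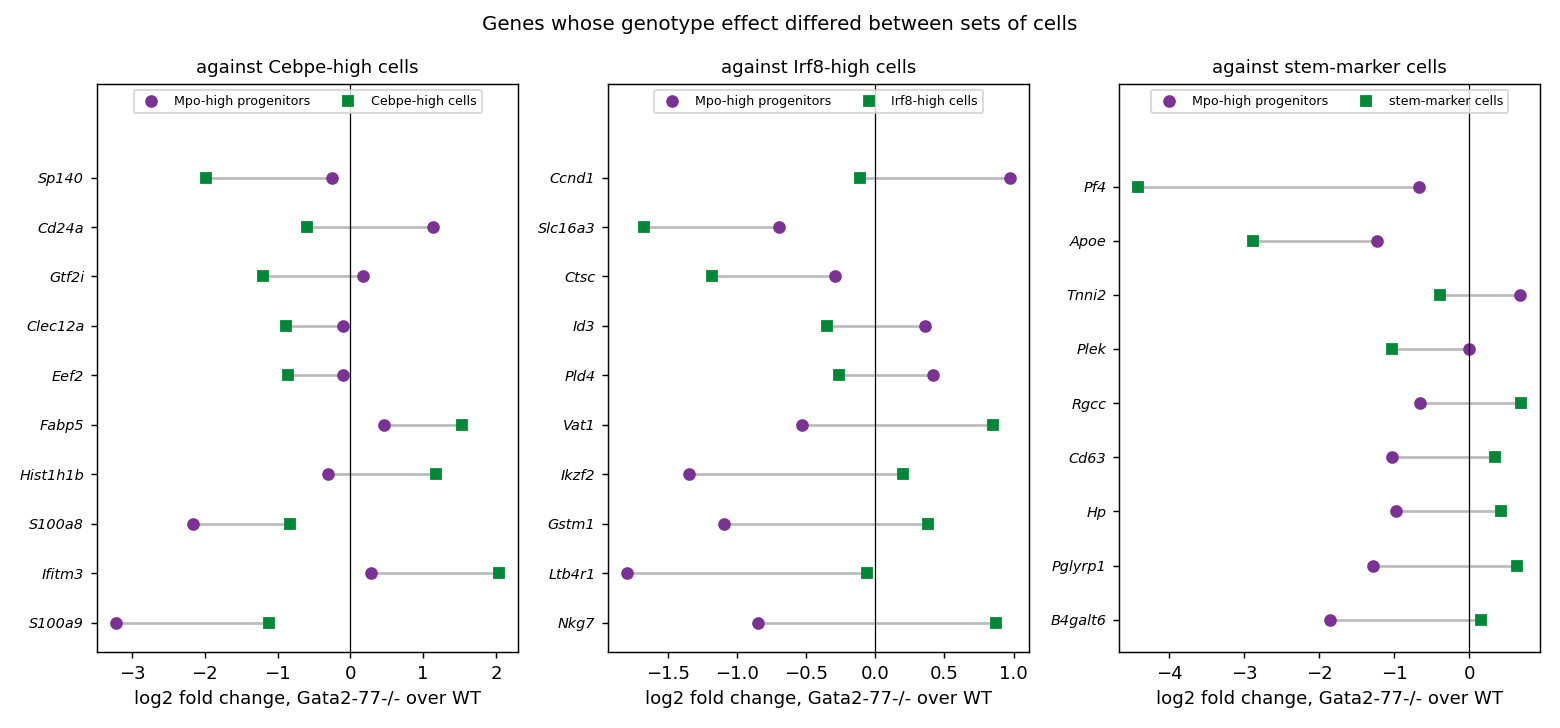
Log2 fold change of Gata2-77-/- over WT in Mpo-high progenitors (circles) and in the cells they were set against (squares), for genes among the 5 largest differences in each direction per comparison. Ccnd1 stands at 0.97 in Mpo-high progenitors and -0.11 in Irf8-high cells, and Cd63 at -1.03 in Mpo-high progenitors and 0.34 in stem-marker cells.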

How the data were processed

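The authors deposited unnormalized counts, as whole-number UMIs, for 3624 genes and 9960 cells. The submitters' processing notes list mm10 as the build and, as tools, Seurat 2.3.4 and Cell Ranger 2.0.2, and how genes and cells were chosen is not stated. A grouping file deposited by the authors, which holds no other measured unit, gives each cell's genotype and library letter. As no header names the columns of the table, they were matched to that file by their order. Library letters are not tied to the numbered samples of the labels, so libraries carry their letters.

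The members and gene lists were chosen with earlier results of these data known. Member UMIs were summed per library. After filterByExpr and TMM scaling, the two-sided quasi-likelihood test of edgeR 4.0.16 was run in R 4.3.3, and p-values were adjusted over all genes by Benjamini-Hochberg, with a threshold of 0.05. Genes of the rule were never counted as called. The DESeq2 1.42.0 Wald test stands beside. Differences of the genotype effect between sets of cells were tested with edgeR, with library and set as factors and the interaction of set and genotype. All sets met the limit on Cpa3 and Mcpt8. Beyond their own gene, Cebpe-high cells met the Irf8 limit, Irf8-high cells those on Cebpe, Ly6c2 and the receptors, and stem-marker cells those on Irf8, Cebpe, Ly6c2 and the receptors. SE is that of the fitted log2 fold change, positive when higher in Gata2-77-/-. Ratios of members over other cells were taken on CPM with a pseudocount of 1.

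Named genes were Gata2, up to 3 genes with the smallest p per list, the 5 largest differences per direction between sets of cells with at least 20 CPM, and the 15 highest and 10 lowest genes of members against other cells. The rule also took up to 12 genes per direction past the threshold for the genotype effect, of which there were none. Other genes are named as members of a list or are said to be picked after their values were seen. The 2 libraries per genotype come from separate embryos. No doublet caller was run, and an alternative leaves out the 5% of cells with most UMIs. On data simulated with the same spread for every gene, edgeR called 8 of 3385 unchanged genes for the genotype effect. For the differences between sets it recovered 38% of 2-fold changes against Cebpe-high, 69% against Irf8-high and 74% against stem-marker cells. Gene symbols were matched to GENCODE M21, where 3522 of 3624 had a single gene. Counts per gene include overlapping and antisense genes as the authors counted them. Some genes that these rules take are not reported here.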

Additional observations from a re-analysis of the deposited data

Results flagged for a closer look

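These genes are listed because their genotype effect differed between Mpo-high progenitors and another set of cells, by edgeR's test of the interaction. Values in parentheses are the difference of log2 fold changes (Gata2-77-/- over WT), Mpo-high progenitors minus the other set.

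Against stem-marker cells, the effect was higher in Mpo-high progenitors for Pf4 (3.87), Apoe (1.66), Tnni2 (1.07), Plek (1.03). It was lower for B4galt6 (-2.01), Pglyrp1 (-1.90), Hp (-1.41), Cd63 (-1.38), Rgcc (-1.36). Adjusted p-values ran from 1.68e-09 to 0.0434. Apoe, Pglyrp1, Cd63 and Rgcc passed under all 7 alternatives run for this comparison, and the other genes under 3 to 6 of 7.

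Against Irf8-high cells, the effect was higher in Mpo-high progenitors for Ccnd1 (1.10), Slc16a3 (0.94), Ctsc (0.93), Id3 (0.76), Pld4 (0.74). It was lower for Nkg7 (-1.82), Ltb4r1 (-1.77), Gstm1 (-1.59), Ikzf2 (-1.53), Vat1 (-1.43). Adjusted p-values ran from 4.24e-14 to 0.0364. Ccnd1 and Nkg7 passed under all 7 alternatives run for this comparison, and the other genes under 3 to 6 of 7.

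Against Cebpe-high cells, the effect was higher in Mpo-high progenitors for Sp140 (1.73), Cd24a (1.69), Gtf2i (1.38), Clec12a (0.78), Eef2 (0.76). It was lower for S100a9 (-2.34), Ifitm3 (-1.74), S100a8 (-1.59), Hist1h1b (-1.49), Fabp5 (-1.09). Adjusted p-values ran from 2.75e-05 to 0.0255. None of them passed under all 7 alternatives run for this comparison, and each passed under 2 to 6.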

How the results depend on the processing

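Against 0 genes in the main count, the genotype effect in Mpo-high progenitors gave 47 calls with the DESeq2 Wald test, 19 with equal cells per library and 96 with the rule applied to thinned cells. It gave 3 with Mpo of at least 8, 3 with Mpo of at least 15, 3 with the upper limits halved and 1 without the 5% of cells with most UMIs. Among alternatives added after the data were seen, members with Mpo of 10 to 20 gave 14, those with at least 20 gave 4 and those with no Cebpe UMI gave 0. DESeq2 size factors and no filter also gave 0 (349 and 353 at an unadjusted p under 0.05). Leaving out each library gave 2 to 26 for this effect, 0 to 58 for the differences against Cebpe-high, 86 to 393 against Irf8-high and 21 to 272 against stem-marker cells. Thinning moved the count to 31 against Cebpe-high and to 136 against Irf8-high cells. The share difference was 0.60 points with Mpo of at least 8, and ran from -4.24 to 1.504 points with each library left out. With no Cebpe UMI the sign turned for Ms4a3 (0.52), Pglyrp1 (0.61), Hmga2 (-0.0096) and Ifitm3 (-0.20). With each library left out, Hspa5 ran from -0.51 to 0.0061, turning without library I. The sign also turned for Slc16a3 against Irf8-high cells with thinning (-0.15). The causes were not tested. Of the other values of single genes, 480 for the genotype effect kept direction and side of the threshold and 103 kept direction and passed it. For the differences, 152 kept both and 57 kept direction and no longer passed. No paired analysis was possible because the library letters carry no replicate numbers. Few UMIs lie behind rare transcripts such as Gata2 in Gata2-77-/- libraries and Socs2 in WT libraries.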

Other observations

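Ribosomal protein transcripts, a large part of the panel, were close to even between the genotypes within Mpo-high progenitors. They summed to 344513 and 317957 CPM in A and B, against 353435 and 330820 CPM in F and I. Of 80 such genes tested 72 had a log2 fold change below 0, with a median of -0.11, against 50.8% of all genes below 0, and 4 were lower at an unadjusted p under 0.05 (6.43% of all genes). Of 4 lymphoid priming genes tested, all 4 were above 0 and 3 had both Gata2-77-/- libraries above both WT libraries (26.5% of all genes), without an unadjusted p under 0.05. Notch1 had 26.4 and 23.5 CPM in A and B, against 17.0 and 17.8 CPM in F and I.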
